A study of Homo sapiens with 6 samples.

Results

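The proteasome is the protease that degrades ubiquitin-tagged proteins, and its genes were read from RNA sequencing of DU145, a human metastatic castration-resistant prostate cancer (CRPC) cell line. The members are the 48 genes, of 27381 in the deposited table, whose symbol is PSMA, PSMB, PSMC, PSMD, PSME, PSMF or PSMG followed by a number. The rule reads the symbol and no measured value. The 6 libraries comprise 2 of cells given a scrambled sgRNA with Cas9 (Scr), 2 of CD24 knockout cells (CD24 KO) and 2 of RCC2 knockout cells (RCC2 KO), both made with CRISPR/Cas9. All groups, Scr included, came through the same plasmid-based Cas9 transfection, GFP sorting and clonal expansion, so an effect of a knockout and a difference between clones of 1 line cannot be told apart. The authors deposited 1 FPKM value per gene and condition, a unit in which the fragments of a gene are divided by the length of its transcript and by the depth of the library. FPKM can therefore be compared between genes, while comparisons between columns depend on how the columns were scaled. There are no replicate values and no counts, so no SD, test or p-value exists for any difference below, and the depth behind each value is unknown. The RCC2 KO column carries a name that is both the whole label of the first RCC2 KO library and the stem of the second, and whether it holds both libraries is not known.

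The targeted transcripts did not follow the labels in either knockout. CD24 was listed at 93.2 FPKM in Scr, 309 in CD24 KO and 214 in RCC2 KO. For RCC2 the values were 37.8, 14.2 and 41.8 FPKM in the same order. CD24 mRNA was thus highest in the column labelled CD24 KO, and RCC2 mRNA was highest in the column labelled RCC2 KO and lowest in the column labelled CD24 KO. A frameshift need not lower an mRNA. The table places its CD24 row on chromosome Y, the site of a near-identical copy, so the CD24 values are those of that locus and may not measure the edited gene. The part of either in these values was not tested. Every direction below refers to the libraries labelled CD24 KO or RCC2 KO, and whether the column labels are right was not tested. Of 6 epithelial markers 5 reached 1 FPKM, and they did not share a direction in CD24 KO. KRT8 (336, 149 and 348 FPKM in Scr, CD24 KO and RCC2 KO), KRT18 (293, 141 and 305) and EPCAM (58.9, 44.9 and 58.6) were lower there than in Scr, and CDH1, which encodes E-cadherin (27.9, 52.6 and 23.7), and KRT19 (83.5, 113 and 107) were higher. The prostate marker KLK3, the basal keratin KRT5 and the leukocyte marker PTPRC were listed at 0 in all columns, and of 5 markers of other cells only ACTA2 reached 1 FPKM (2.03, 2.41 and 1.39).

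The 26S proteasome consists of a barrel, the 20S core, and a cap, the 19S regulatory particle. The core is a stack of outer alpha rings, which gate the entry, and inner beta rings, which hold the proteolytic sites of PSMB5, PSMB6 and PSMB7. The 19S base carries the ATPases PSMC1 to PSMC6 that unfold substrates, and the lid carries the deubiquitinase PSMD14. Under interferon-gamma, PSMB8, PSMB9 and PSMB10 replace PSMB5, PSMB6 and PSMB7 to form the immunoproteasome, and PSME1 with PSME2 form the PA28 cap, both known for making peptides for MHC class I. When proteasome activity drops, the transcription factor NFE2L1 is known to raise the genes of the standard particle together, through antioxidant response elements in their promoters. Bulk RNA measures the average over all cells, so fewer cells with a transcript and less transcript per cell cannot be told apart.

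Promoter sequences are shown for 6 members because they are the genes around which the comparison turns. PSMC6 and PSMC3 were, with PSMB6, the subunits of the 26S particle furthest below Scr in CD24 KO, and PSMB5 carries the chymotrypsin-like site. PSME1 was the compared member most above its Scr value in CD24 KO, and PSME2 and PSMB10 are its interferon-inducible partners. The 250 bases before the annotated start were taken from a set of RefSeq promoters on GRCh38.p14 that held 42 of the 48 members. PSMA7, PSMB1, PSMB6, PSMB7, PSMD4 and PSMG3 were not among them. Capitals mark a match on either strand to 1 of 5 motifs, namely the antioxidant response element core (ARE, TGACNNNGC), the NF-Y box (CCAAT), an ETS site (CCGGAAG), the core of the interferon-stimulated response element (ISRE, GAAA repeated after any 2 bases) and the gamma-activated site (GAS, TTCNNNGAA). The windows are PSMC6 at chr14:52706950-52707199 (plus strand), PSMC3 at chr11:47426440-47426689 (minus), PSMB5 at chr14:23035221-23035470 (minus), PSME1 at chr14:24135944-24136193 (plus), PSME2 at chr14:24146611-24146860 (minus) and PSMB10 at chr16:67936851-67937100 (minus), each written 5′ to 3′ along the gene.
PSMC6: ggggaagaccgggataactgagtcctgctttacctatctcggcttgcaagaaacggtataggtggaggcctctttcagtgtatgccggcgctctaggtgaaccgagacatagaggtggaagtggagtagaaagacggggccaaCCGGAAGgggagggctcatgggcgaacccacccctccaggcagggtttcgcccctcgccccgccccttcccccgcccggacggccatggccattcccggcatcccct
PSMC3: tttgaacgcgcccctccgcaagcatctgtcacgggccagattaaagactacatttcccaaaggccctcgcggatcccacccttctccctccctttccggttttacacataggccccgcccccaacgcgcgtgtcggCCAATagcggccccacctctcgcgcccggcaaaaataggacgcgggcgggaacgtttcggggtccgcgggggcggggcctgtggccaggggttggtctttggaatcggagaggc
PSMB5: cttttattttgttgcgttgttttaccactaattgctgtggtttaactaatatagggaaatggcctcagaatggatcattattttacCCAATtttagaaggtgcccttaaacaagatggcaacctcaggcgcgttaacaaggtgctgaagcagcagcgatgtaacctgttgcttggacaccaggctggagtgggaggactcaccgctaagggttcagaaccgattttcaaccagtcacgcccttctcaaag
PSME1: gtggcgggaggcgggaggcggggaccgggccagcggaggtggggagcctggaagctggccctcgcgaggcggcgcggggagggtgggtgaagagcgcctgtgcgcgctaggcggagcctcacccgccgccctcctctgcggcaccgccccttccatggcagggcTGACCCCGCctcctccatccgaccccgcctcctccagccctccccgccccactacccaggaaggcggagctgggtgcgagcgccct
PSME2: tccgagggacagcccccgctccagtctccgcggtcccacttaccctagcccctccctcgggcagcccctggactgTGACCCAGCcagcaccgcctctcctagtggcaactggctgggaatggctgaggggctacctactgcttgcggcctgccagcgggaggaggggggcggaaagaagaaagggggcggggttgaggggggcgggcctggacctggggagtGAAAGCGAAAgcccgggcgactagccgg
PSMB10: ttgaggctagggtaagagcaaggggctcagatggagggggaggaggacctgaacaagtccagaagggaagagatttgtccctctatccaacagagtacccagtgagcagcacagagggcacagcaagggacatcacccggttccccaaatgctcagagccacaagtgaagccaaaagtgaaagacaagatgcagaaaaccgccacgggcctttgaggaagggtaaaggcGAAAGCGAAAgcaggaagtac

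In these windows PSMC6 held an ETS match 107 to 101 bases before the start, and PSMC3 and PSMB5 each held a CCAAT match, at 114 to 110 and at 164 to 160 bases before it. PSME1 held an ARE core at 86 to 78 bases. PSME2 held an ARE core at 175 to 167 bases and an ISRE core at 28 to 19 bases, and PSMB10 held an ISRE core at 21 to 12 bases before the start. The ISRE letters of PSME2 and PSMB10 were thus both close to the start. A match is a description of letters and not evidence of a bound factor.

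Of the 48 members, 44 reached 1 FPKM in at least 1 column and were compared with the 12822 genes of the table that did so. PSMA8, a testis subunit, and PSMB11, a thymus subunit, were listed at 0 in all columns. PSMB8 and PSMB9 were listed under 1 FPKM and are treated below with the immunoproteasome. Proteasome genes were abundant transcripts in this line. The median compared member was at 67.6 FPKM in Scr, 46.9 in CD24 KO and 77.7 in RCC2 KO, beside 10.5, 10.2 and 10.5 FPKM for all genes compared. The most abundant member in every column was PSMB4, a non-catalytic beta subunit, at 363 FPKM in Scr, 190.0 in CD24 KO and 377 in RCC2 KO.

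The members as a whole were lower in CD24 KO than in Scr and close to Scr in RCC2 KO. Their FPKM summed to 4146 in Scr, 2586 in CD24 KO and 4311 in RCC2 KO, which was 0.919%, 0.665% and 0.965% of each column's sum. The ratio to Scr was 0.624 in CD24 KO and 1.04 in RCC2 KO. Of the 44 compared members, 42 (95.5%) had their lowest value in CD24 KO, as had 44.2% of all genes compared. The highest value was in RCC2 KO for 28 members (63.6%), beside 34.4% of all genes.

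**Figure D1:**
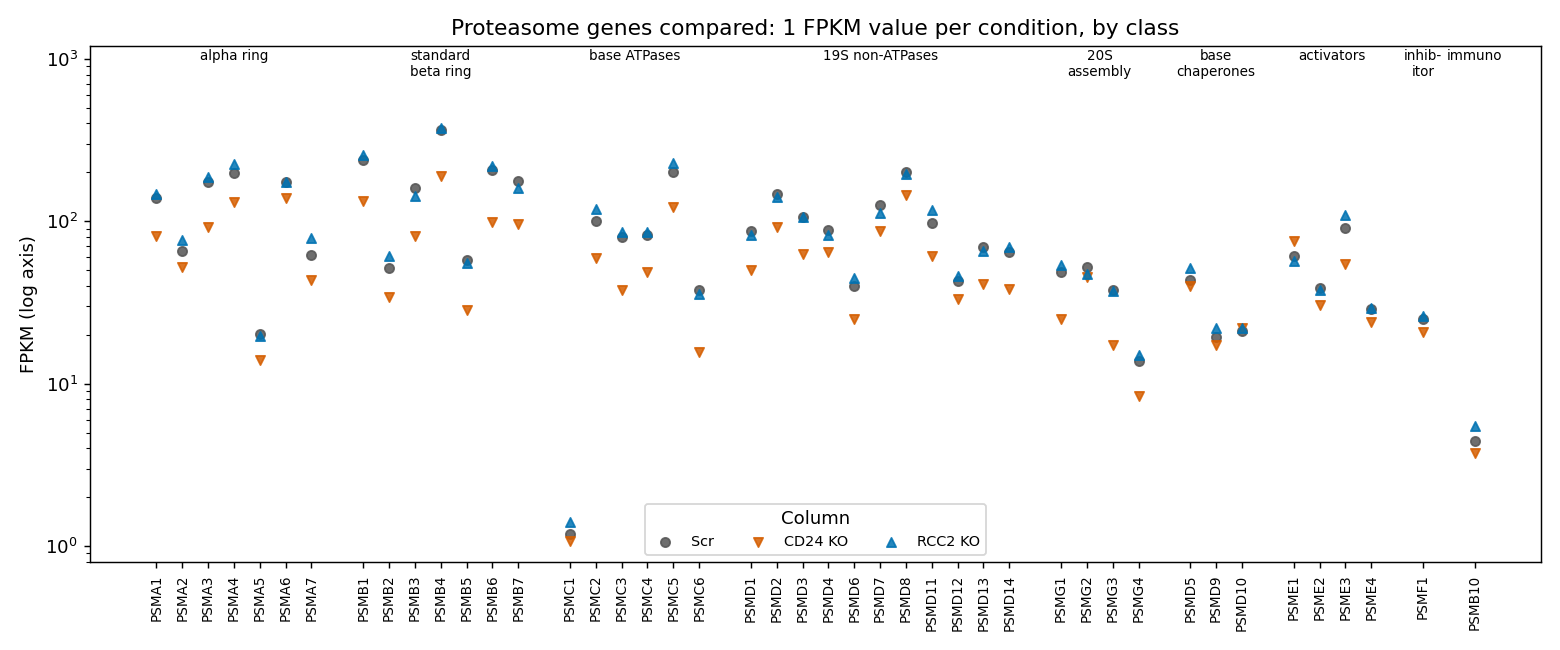
FPKM on a log axis of the 44 compared proteasome genes, grouped by class along the x axis, with 1 point per condition for Scr (grey circles), CD24 KO (orange, pointing down) and RCC2 KO (blue, pointing up). The orange point was the lowest of the 3 for 42 genes, the exceptions being PSME1 and PSMD10, and PSMC1 lay far below the other ATPases in every column.

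Differences between columns are given as differences of log2(FPKM + 1), and a gene counts as higher or lower from 1.5-fold on that scale, a minimum of size that stands in for a test. In CD24 KO minus Scr the median of the 44 members was -0.66, beside -0.03 for all genes compared. At least 1.5-fold lower were 25 members (56.8%), where 11.6% of all genes were, and no member was at least 1.5-fold higher, where 9.55% of all genes were. At least 2-fold lower were 4 members, PSMC6, PSMG3, PSMB6 and PSMC3, against 3.03% of all genes, and none was 2-fold higher against 2.67%. Abundant genes were lower in CD24 KO more often than others in this table, since 18.4% of the 4168 genes with a mean of at least 20 FPKM were at least 1.5-fold lower. Across the 44 members the Spearman correlation between mean log2 level and this difference was -0.41, and it was -0.27 across all genes compared, with level and difference both drawn from the same columns. Within the 30 genes of the 20S core and 19S particle other than PSMC1 it was -0.14.

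In RCC2 KO minus Scr the median of the members was 0.07 and that of all genes was -0.00. Of the members 28 lay above 0 and 16 below. None was 1.5-fold higher, beside 1.45% of all genes, and none was 1.5-fold lower, beside 3.82%. At 2-fold the shares of all genes were 0.406% higher and 0.796% lower, again with no member. The members ran from -0.18 for PSMD7, a lid subunit that pairs with PSMD14, to 0.34 for PSMA7, an alpha subunit. Their SD across genes was 0.14, beside 0.42 for all genes compared.

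RCC2 KO set against CD24 KO gave a median of 0.76 for the members and 0.02 for all genes. RCC2 KO exceeded CD24 KO by at least 1.5-fold in 27 members, beside 13.8% of all genes, and 0 were lower, beside 14.1%. At 2-fold 6 members were higher, beside 4.02% of all genes, and 0 lower, beside 4.3%. PSME1 was the only compared member below 0, at -0.39. CD24 KO and RCC2 KO are both compared with the same Scr column, so these 3 comparisons are not independent of each other.

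How large the CD24 KO difference is depends on the scaling of the columns. The FPKM of all genes summed to 451272 in Scr, 388764 in CD24 KO and 447005 in RCC2 KO. With every column rescaled to the same sum, the median of all genes in CD24 KO minus Scr moved to 0.16, and the members' median to -0.46, with 11 members at least 1.5-fold lower. The distance of the members from all genes was -0.63 as deposited, -0.62 after rescaling and -0.49 after quantile normalization. Members above 0 were PSME1 and PSMD10 as deposited, joined after rescaling by PSMC1, PSMD5 and PSMD9. In CD24 KO minus Scr, rescaling left 7.22% of all genes at least 1.5-fold lower and 19.6% higher.

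**Figure D2:**
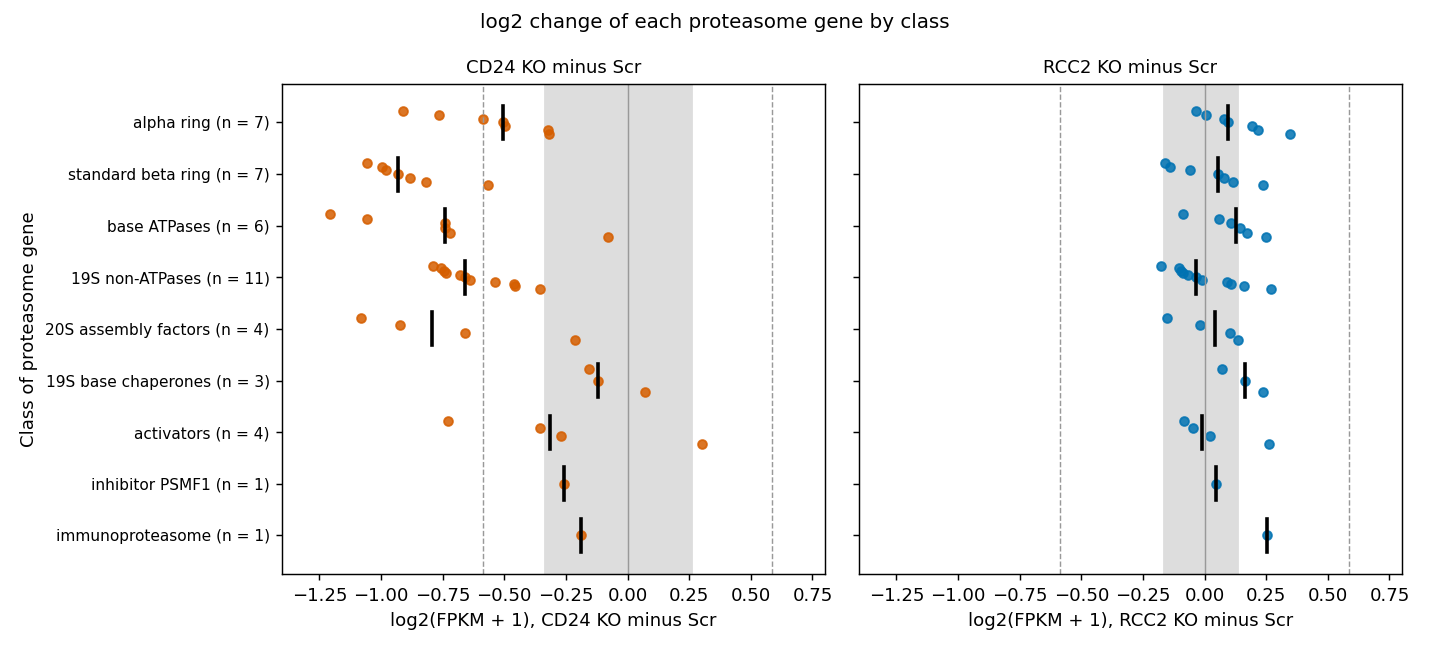
Difference of log2(FPKM + 1) from Scr for each compared proteasome gene (1 point per gene) in CD24 KO (left) and RCC2 KO (right), by class, with the class median as a black bar, the middle 50% of all genes compared as a grey band and 1.5-fold as dashed lines. In CD24 KO the bars of the core, the 19S particle and the 20S assembly factors lie at -0.50 or below and those of the other classes lie at -0.31 or above, while in RCC2 KO no point crosses a dashed line.

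Among the alpha subunits, which form the outer rings and the gate of the core, all 7 were lowest in CD24 KO, with a median difference from Scr of -0.50. Their summed level was 833 FPKM in Scr, 554 in CD24 KO and 909 in RCC2 KO. PSMA3 (hg19 chr14:58711523-58764855) differed most, with 175 FPKM in Scr, 92.4 in CD24 KO and 186 in RCC2 KO, a log2 difference of -0.91 in CD24 KO against 0.09 in RCC2 KO. Its locus in the table is merged with the antisense gene PSMA3-AS1, and whether the counting used strand is not given in the sources used here. PSMA1 was at 138 FPKM in Scr, 81.1 in CD24 KO and 146 in RCC2 KO (-0.76 and 0.08). PSMA4 stood at 198, 132 and 226 FPKM in the same order, and its CD24 KO difference of -0.59 only just reached the 1.5-fold minimum. Nearest to Scr in CD24 KO was PSMA6, at 174, 139.6 and 175 FPKM, with a difference of -0.32. PSMA7 was at 62.2 FPKM in Scr, 43.6 in CD24 KO and 79.3 in RCC2 KO, which put RCC2 KO 1.82-fold above CD24 KO. PSMA2 and PSMA5, at -0.32 and -0.50 in CD24 KO, completed the class, so that all alpha subunits lay below Scr but only 3 of 7 passed 1.5-fold.

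The standard beta subunits, which form the inner rings, had the lowest class median in CD24 KO, at -0.93, and 6 of 7 were at least 1.5-fold below Scr. Their levels summed to 1254 FPKM in Scr, 662 in CD24 KO and 1273 in RCC2 KO, so CD24 KO stood at 0.528 of Scr and RCC2 KO at 1.02. PSMB6 (hg19 chr17:4699439-4701798), which carries the caspase-like site, was at 207 FPKM in Scr, 98.8 in CD24 KO and 218 in RCC2 KO. PSMB5 (chr14:23495060-23504429), with the chymotrypsin-like site that the inhibitor bortezomib targets, was at 57.5, 28.4 and 55.1 FPKM. PSMB7 (chr9:127115744-127177752), with the trypsin-like site, was at 177, 95.5 and 161 FPKM. The log2 differences in CD24 KO were -1.06, -0.99 and -0.88, so the catalytic subunits stood at about the same distance from Scr. In RCC2 KO the same subunits were at 0.08, -0.06 and -0.14, on both sides of 0.

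The non-catalytic beta subunits were likewise lowest in CD24 KO, and in RCC2 KO only PSMB3 lay below Scr (-0.16). PSMB4, the most abundant member, had a CD24 KO difference of -0.93 and an RCC2 KO difference of 0.06. PSMB3 was at 161 FPKM in Scr, 81.0 in CD24 KO and 144 in RCC2 KO, a difference of -0.98 in CD24 KO. PSMB1 was at 237, 134 and 257 FPKM, a difference of -0.82. PSMB2 was the exception to the 1.5-fold minimum, with 51.3 FPKM in Scr, 34.4 in CD24 KO and 60.7 in RCC2 KO, a difference of -0.56 in CD24 KO against 0.24 in RCC2 KO. Between RCC2 KO and CD24 KO all 7 beta subunits, PSMB2 included, passed 1.5-fold.

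The levels of subunits that occur once per ring were far from equal. In Scr the 14 genes of the standard core ran from 20.1 FPKM for PSMA5 to 363 for PSMB4, although each contributes the same number of copies to a core particle. The order of the extremes was the same in CD24 KO (13.9 and 190.0 FPKM) and RCC2 KO (19.6 and 377 FPKM). The median of the 14 core genes was 168 FPKM in Scr, 86.7 in CD24 KO and 153 in RCC2 KO.

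The base ATPases, which thread substrates into the core, had a median difference of -0.74 in CD24 KO, with 5 of 6 at least 1.5-fold below Scr. PSMC6 (hg19 chr14:53173896-53194716) had the lowest CD24 KO value relative to Scr of any member, with 37.7 FPKM in Scr, 15.8 in CD24 KO and 35.4 in RCC2 KO, a log2 difference of -1.21 in CD24 KO against -0.09 in RCC2 KO. PSMC3 (chr11:47440320-47448024) was at 80.0 FPKM in Scr, 37.9 in CD24 KO and 86.4 in RCC2 KO (-1.06 and 0.11). These were the only ATPases past 2-fold. PSMC4 was at 81.9, 48.6 and 85.4 FPKM and PSMC5 at 202, 122 and 228 FPKM, with CD24 KO differences of -0.74 and -0.72. PSMC2 was at 100.04 FPKM in Scr, 59.4 in CD24 KO and 119 in RCC2 KO, but its row also spans the loci of RELN and SLC26A5. PSMC5 likewise shares its locus with FTSJ3. PSMC1 did not resemble the others in level, with 1.18 FPKM in Scr, 1.07 in CD24 KO and 1.41 in RCC2 KO. GENCODE 29 lists 13 pseudogenes of PSMC1, the most of any member, and reads that match several places may have been lost or split. The share of such reads was not tested.

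The non-ATPase subunits of the 19S particle, which recognise, hold and deubiquitinate substrates, had a median of -0.66 in CD24 KO against -0.03 in RCC2 KO. In CD24 KO all 11 were below Scr and 7 by at least 1.5-fold, over a narrow range from -0.79 to -0.36. At the lower end was PSMD1, a scaffold of the base, with 87.3 FPKM in Scr, 50.2 in CD24 KO and 82.1 in RCC2 KO. The other scaffold of the base, PSMD2, was at 147 FPKM in Scr, 91.7 in CD24 KO and 141 in RCC2 KO. PSMD14, the deubiquitinase, was at 64.5, 38.4 and 69.6 FPKM, a difference of -0.74 in CD24 KO against 0.11 in RCC2 KO. Another 4 lid subunits also passed 1.5-fold in CD24 KO.

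Of these lid subunits, PSMD3 was at 107 FPKM in Scr, 62.8 in CD24 KO and 106 in RCC2 KO. PSMD13 was at 69.7, 41.3 and 65.2 FPKM, and PSMD6, whose row overlaps the antisense gene PSMD6-AS2, at 39.7, 25.2 and 44.4 FPKM. PSMD11, a lid subunit known to help the particle assemble, was at 97.1 FPKM in Scr, 61.2 in CD24 KO and 117 in RCC2 KO, which made it the non-ATPase furthest above Scr in RCC2 KO (0.27). The ubiquitin receptor PSMD4 was at 88.5 FPKM in Scr, 64.2 in CD24 KO and 82.4 in RCC2 KO, and PSMD8 was at 201, 146 and 196 FPKM. Both had a CD24 KO difference of -0.46. Nearest to Scr was PSMD12, at 43.0, 33.4 and 45.9 FPKM (-0.36 in CD24 KO), and PSMD7 was at -0.54. The 19S particle as a whole, 17 genes, summed to 1574 FPKM in Scr, 986 in CD24 KO and 1617 in RCC2 KO.

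The chaperones that build the 19S base, PSMD5, PSMD9 and PSMD10, share the PSMD name but are not part of the finished particle, and they stood closer to Scr in CD24 KO than the particle did. PSMD5 was at 43.2 FPKM in Scr, 39.7 in CD24 KO and 51.2 in RCC2 KO. PSMD9 was at 19.4, 17.3 and 21.9 FPKM. PSMD10, also called gankyrin, was at 21.04 FPKM in Scr and 22.1 in both knockout columns. The median of the class in CD24 KO was -0.12 as deposited, 0.09 after rescaling and 0.02 after quantile normalization, so its direction depended on the scaling. None of the class passed 1.5-fold in any comparison.

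The 20S assembly factors, by contrast, had a median of -0.79 in CD24 KO, and 3 of 4 were at least 1.5-fold lower. PSMG3 and PSMG4 form a heterodimer that supports the alpha ring while it assembles. PSMG3 (hg19 chr7:1606970-1609668) was at 37.6 FPKM in Scr, 17.2 in CD24 KO and 37.1 in RCC2 KO, a difference of -1.08 in CD24 KO against -0.02 in RCC2 KO. PSMG4 was at 13.9, 8.40 and 15.0 FPKM (-0.66 and 0.10). PSMG1 and PSMG2 form the other heterodimer of alpha ring assembly, and their values were unlike each other. PSMG1 was at 48.5 FPKM in Scr, 25.1 in CD24 KO and 53.4 in RCC2 KO, a difference of -0.92 in CD24 KO. It lies on chromosome 21, where the median of 128 compared genes in CD24 KO minus Scr was -0.41. PSMG2 was at 52.4 FPKM in Scr, 45.1 in CD24 KO and 47.0 in RCC2 KO (-0.21 and -0.15). It lies on chromosome 18, where the median of 191 compared genes in RCC2 KO minus Scr was -0.21, and its row overlaps CEP76. The part of the chromosome in these values was not tested.

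The activators split by gene. PSME3, which forms the nuclear PA28-gamma cap, was at 90.6 FPKM in Scr, 54.4 in CD24 KO and 109 in RCC2 KO, a difference of -0.73 in CD24 KO that resembled the particle. PSME4, the nuclear activator PA200, was at 28.9, 23.8 and 29.4 FPKM (-0.27 in CD24 KO), and the inhibitor-like PSMF1 at 25.1, 20.8 and 25.97 FPKM (-0.26). PSME1 (hg19 chr14:24605367-24610797) was at 60.7 FPKM in Scr, 75.1 in CD24 KO and 57.2 in RCC2 KO, a difference of 0.30 in CD24 KO against -0.09 in RCC2 KO. Among the 44 compared members only PSME1 had its highest value in CD24 KO, and it stayed above Scr there with rescaled and with quantile-normalized columns. PSME2 (chr14:24612574-24615855), its partner in the same cap and its near neighbour in the genome, was at 39.0 FPKM in Scr, 30.3 in CD24 KO and 37.8 in RCC2 KO, a difference of -0.35 in CD24 KO. The PSME1 row is shared with EMC9, and reads of the neighbour could enter its value. PSME2 shares its row with MIR7703 and has 2 pseudogenes in GENCODE 29, so both sides of their ratio are uncertain. The ratio of PSME1 to PSME2 was 1.56 in Scr, 2.48 in CD24 KO and 1.51 in RCC2 KO.

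Ratios within a column do not depend on how that column was scaled, and they describe the balance of the parts. The median 19S gene stood to the median 20S gene as 0.521 in Scr, 0.579 in CD24 KO and 0.556 in RCC2 KO, so the proportion of core to regulatory particle ran over a narrow range. The sum of PSME1 and PSME2 over the 20S median was 0.595 in Scr, 1.22 in CD24 KO and 0.619 in RCC2 KO. For PSME3 the same ratio was 0.541, 0.627 and 0.710. Of these 3 ratios to the 20S median, that of the interferon-inducible PA28 cap stood furthest from Scr in CD24 KO. That of PSME3 stood furthest from Scr in RCC2 KO. The denominator differed too, with a 20S median of 168 FPKM in Scr, 86.7 in CD24 KO and 153 in RCC2 KO. In CD24 KO PSME1 was at 1.24 and PSME2 at 0.776 of Scr, so the 1.22 came mainly from the lower 20S median. In RCC2 KO PSME3 was at 1.20 of Scr, and the core genes summed to 1.05 of Scr although their median was lower.

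**Figure D3:**
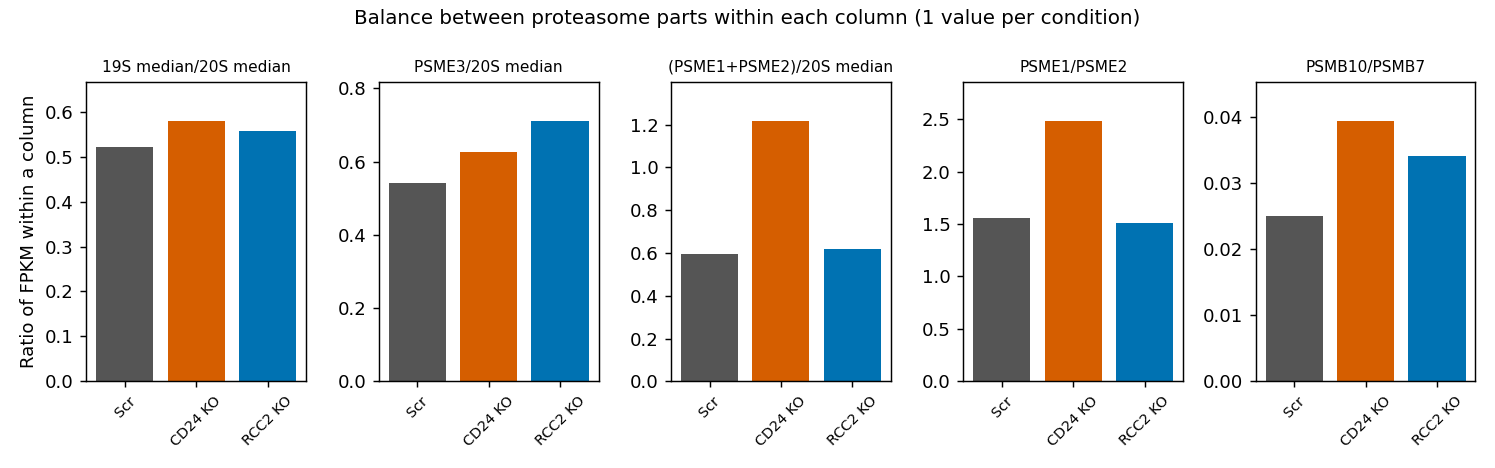
Bars, each axis starting at 0, of 5 ratios of FPKM within each column (Scr grey, CD24 KO orange, RCC2 KO blue, 1 value per condition). The ratio of 19S to 20S medians runs only from 0.521 to 0.579. The sum of PSME1 and PSME2 relative to the 20S median is 1.22 in CD24 KO against 0.595 in Scr. The 20S median itself is 86.7 FPKM in CD24 KO against 168 in Scr.

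The immunoproteasome could be read from PSMB10 only. PSMB10 (hg19 chr16:67968407-67970780), the inducible counterpart of PSMB7, was at 4.43 FPKM in Scr, 3.76 in CD24 KO and 5.47 in RCC2 KO, differences of -0.19 and 0.25. It amounted to 2.50% of PSMB7 in Scr, 3.94% in CD24 KO and 3.41% in RCC2 KO. PSMB8 (chr6:32808494-32821748), the counterpart of PSMB5, was listed at 0.0500 FPKM in Scr, 0 in CD24 KO and 0.0336 in RCC2 KO. PSMB9 (chr6:32821938-32827628), the counterpart of PSMB6, was listed at 0.133, 0.223 and 0.0685 FPKM.

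These values for PSMB8 and PSMB9 are listings and cannot be read as absence of the transcripts. Both genes lie in the MHC region, and from HLA-F to TAPBP (chr6:29691117-33282164) only 22 of 201 genes (10.9%) reached 1 FPKM, beside 46.8% of the whole table. In that region 127 genes (63.2%) were listed at 0 in every column, beside 31.9% of the table. The ribosomal protein gene RPS18, the tRNA synthetase gene VARS and CLIC1, LSM2 and ABCF1, picked after their values were seen because cells in general use them, were all listed at 0 everywhere, and CSNK2B, MRPS18B and BAG6 were at no more than 0.0505 FPKM. The table also has 2 rows on alternative haplotype sequences of the region. TAP1 (0.509, 0.443 and 0.403 FPKM) and TAPBP (0.228, 0.312 and 0.396), further genes of peptide loading, lie in the same stretch. PSMB10, PSME1 and PSME2 lie outside it.

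Genes of the interferon-gamma axis and of peptide loading gave no common direction. Of 17 listed, 14 were compared, with a median of 0.13 in CD24 KO minus Scr and -0.06 in RCC2 KO minus Scr. TAP1 and TAPBP were among those listed but not compared. In CD24 KO 1 (7.14%) was at least 1.5-fold lower, beside 11.6% of all genes compared, and none was higher, beside 9.55%. The 1 was the receptor chain IFNGR2 on chromosome 21 (55.1, 32.4 and 53.6 FPKM). IRF1, a direct activator of the immunoproteasome genes, was at 13.4, 14.8 and 11.2 FPKM. B2M, the light chain of MHC class I, was at 1286 FPKM in Scr, 1921 in CD24 KO and 1351 in RCC2 KO, just below 1.5-fold. In RCC2 KO only the peptide-trimming gene ERAP2 passed 1.5-fold, at 20.7 FPKM in Scr and 33.7 in RCC2 KO, where 1.45% of all genes were higher.

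Genes with known roles, in either direction, in the transcription of proteasome genes stood near Scr in most cases. Of 13, 2 were at least 1.5-fold lower in CD24 KO, a share near the 11.6% of all genes compared, and the median was -0.14 as deposited and 0.07 with rescaled columns. NFE2L1 was at 108 FPKM in Scr, 109 in CD24 KO and 94.6 in RCC2 KO, and NFE2L2, the related factor NRF2, at 89.98, 106 and 77.2 FPKM. The NF-Y subunit gene NFYC was at 23.2 FPKM in Scr, 10.6 in CD24 KO and 21.9 in RCC2 KO, a difference of -1.06 in CD24 KO. VCP, the segregase that extracts NFE2L1 from the endoplasmic reticulum and delivers ubiquitinated proteins to the proteasome, was at 169, 89.5 and 172 FPKM (-0.91 in CD24 KO). In RCC2 KO the list had a median of -0.08 and none of its genes passed 1.5-fold.

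Proteasome-associated proteins that the naming rule does not take in were followed as a list of 12. Their median in CD24 KO was -0.44 as deposited and -0.23 with rescaled columns. At least 1.5-fold lower was 1 gene (8.33%, beside 11.6% of all genes compared), the ubiquitin ligase UBE3C (50.2, 31.3 and 55.3 FPKM). At least 1.5-fold higher was 1 gene, where 9.55% of all genes were, namely ZFAND5 (22.8, 40.8 and 25.7 FPKM), which binds the proteasome and stimulates it. SEM1, a small lid subunit, was at 349 FPKM in Scr, 232 in CD24 KO and 361 in RCC2 KO. The core maturation factor POMP was at 80.6, 57.6 and 86.9 FPKM. PAAF1, a negative regulator of 26S assembly, had the opposite order of columns to most subunits, at 16.9 FPKM in Scr, 25.2 in CD24 KO and 12.3 in RCC2 KO. Of 15 genes that supply ubiquitin or deliver substrates, 3 (20%) were at least 1.5-fold lower in CD24 KO. The share was 11.6% of all genes compared and 18.4% of genes with a mean of at least 20 FPKM, so the count was near that of abundant genes. The 3 were VCP and its cofactors UFD1 (62.6, 31.4 and 70.0 FPKM) and NPLOC4 (69.3, 45.3 and 71.8 FPKM). The median of these 15 in CD24 KO was -0.30 as deposited but -0.09 with rescaled columns, and it was 0.07 in RCC2 KO. There RPS27A alone passed 1.5-fold, at 22.2 FPKM in Scr and 38.4 in RCC2 KO, where 1.45% of all genes were higher.

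Other protein complexes whose subunits are made together give a scale for the particle. For the counts in CD24 KO, 11.6% of all genes compared and 18.4% of genes with a mean of at least 20 FPKM were at least 1.5-fold lower. The 31 genes of the 20S core and 19S particle had a median of -0.74 in CD24 KO, and 21 were at least 1.5-fold lower. The 8 genes of the cytosolic chaperonin CCT had a lower median still, at -0.89, with 7 of 8 at least 1.5-fold lower, as in CCT6A (255, 112 and 281 FPKM). The translation initiation factor eIF3 had a median of -0.44 with 4 of 13 lower, and the COP9 signalosome, which resembles the 19S lid in its subunits, had a median of -0.34 with 1 of 9 lower. In RCC2 KO minus Scr the medians were 0.08 for the particle, 0.06 for CCT, -0.16 for eIF3 and 0.11 for the COP9 signalosome. With rescaled columns the CD24 KO medians were -0.68 for CCT, -0.23 for eIF3 and -0.13 for the COP9 signalosome. A CD24 KO difference of the size seen in the proteasome was therefore found in CCT as well and is not particular to the proteasome. EIF3C, at 4.60, 4.95 and 3.12 FPKM, has a near copy, EIF3CL, and is uncertain, since reads of one could be counted for the other, which was not tested.

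**Figure D4:**
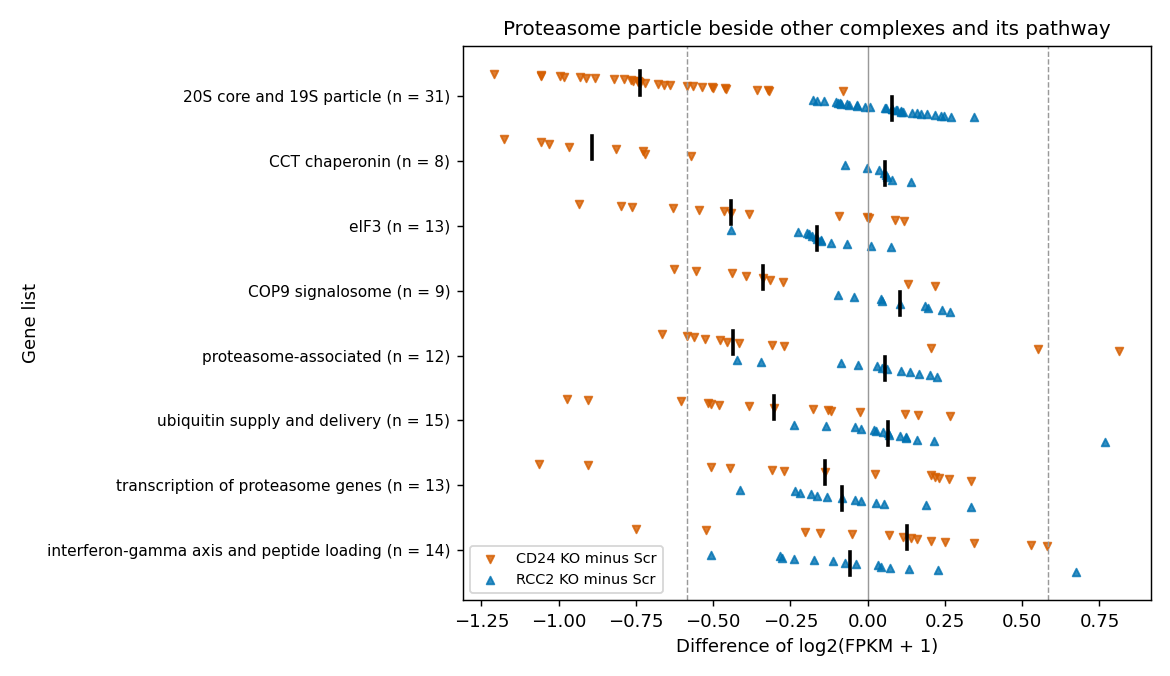
Difference of log2(FPKM + 1) from Scr for the genes of the 20S core and 19S particle and of 7 other lists (1 point per gene, orange for CD24 KO, blue for RCC2 KO, black bars for medians, dashed lines at 1.5-fold). The orange bar lies at -0.74 for the proteasome particle and at -0.89 for CCT, and between -0.44 and 0.13 for the other lists.

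The 13 compared members outside the core and the 19S particle had a median of -0.26 in CD24 KO and 4 of them, PSME3 and PSMG1, PSMG3 and PSMG4, were at least 1.5-fold lower. The SD across the 44 members was 0.33 in CD24 KO minus Scr and 0.35 in RCC2 KO minus CD24 KO, beside 0.60 and 0.67 for all genes compared. The SDs of all genes take in less abundant genes and extreme rows, such as RNR2 at -14.7 in CD24 KO minus Scr. Within the particle without PSMC1, 30 genes, the SD in CD24 KO minus Scr was 0.23. The middle 50% of these 30 genes lay between -0.87 and -0.54.

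Promoter letters were counted in a window around the RefSeq start, 250 bases before it and 50 after it. The ARE core was found in 13 of 42 members (31.0%), in 13.6% of all 27305 promoters and in 15.5% of those of genes compared. ETS matches were also found in 13 members, beside 10.7% of all promoters and 19.9% of those of genes compared. CCAAT was found in 19 members (45.2%), beside 35.7% of all promoters and 36.4% of those of genes compared. The GAS letters were found in 5 (11.9%), beside 7.88% and 6.35%. An ISRE core was found in 6 members (14.3%), beside 3.65% of all promoters and 2.6% of those of genes compared. The 6 were PSMA4, PSMB4, PSMB10, PSME1, PSME2 and PSMG4. In PSME1 that match lies in the 50 bases after the start, which are not shown.

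The motif groups differed in the classes they hold, so the differences from Scr are given within the core and 19S particle and outside them. Of the 12 compared members with an ARE core, the element through which NFE2L1 acts, 5 belong to the particle and 7 do not. In CD24 KO minus Scr the particle genes with an ARE core had a median of -0.76, beside -0.68 for the 21 without. Outside the particle the medians were -0.21 with and -0.26 without. For CCAAT the particle medians were -0.73 in 14 genes with the box and -0.71 in 12 without. Outside the particle they lay further apart, at -0.73 in 3 genes with the box and -0.21 in 9 without. For ETS the particle medians were -0.64 in 9 and -0.74 in 17 genes, and outside the particle -0.27 in 3 and -0.21 in 9. Within the particle, genes with and without a motif thus lay close together. PSME1 and PSME2 both hold an ARE core and an ISRE core, and their CD24 KO differences were 0.30 and -0.35. These are differences between small groups of genes within 1 pair of columns and are given as a description.

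Some rows cannot be assigned to 1 gene with certainty. Among the members, 11 share a locus with another gene, and 12 members have pseudogenes in GENCODE 29 whose reads could be confused with theirs. The members without pseudogenes had a median of -0.72 in CD24 KO minus Scr, with 22 at least 1.5-fold lower, and of 0.09 in RCC2 KO minus Scr. Their order of columns was thus the one described for all members.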

How the data were processed

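RNA-seq was analysed in 6 libraries of DU145 cells, with 2 libraries for each of Scr, CD24 KO and RCC2 KO. Library preparation used an Illumina TruSeq kit, given as stranded mRNA in the study's methods. The submitters' processing notes name HISAT, StringTie, Cufflinks and GATK without roles or versions. The authors deposited FPKM values, 1 column per condition and none per library, so the tests planned for separate libraries could not be run. No genome build is named. The coordinates were read as hg19, since only 15.8% of the 24864 symbols unique in GENCODE 29 overlapped the GRCh38 locus of the same symbol.

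From the deposited FPKM, genes with at least 1 FPKM in at least 1 column (12822) were compared as differences of log2(FPKM + 1). The deposited values themselves are not on the log2 scale. A gene was counted from 1.5-fold. Members were named by class, with values for those at least 1.5-fold changed in any comparison, the catalytic subunits, PSME1, PSME2, all PSMG genes and the extremes of each class in CD24 KO. The members and the gene lists, which were written from general knowledge, were chosen with earlier results of these data known. Promoters came from RefSeq on GRCh38.p14, the first listed per symbol, and motifs were searched on both strands. The calculation was tested on simulated data. Alternatives were other pseudocounts (0.1 and 5), other filters, rescaled, median-centred and quantile-normalized columns, a 2-fold minimum and omission of the immunoproteasome genes. A background of genes at 20 FPKM or more and the omission of members with pseudogenes were alternatives chosen after seeing the data. Calculations ran in Python 3.11.15 with SciPy 1.17.1, pandas 2.3.3 and NumPy 2.4.6, and figures were drawn with matplotlib 3.10.9.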

Additional observations from a re-analysis of the deposited data

How the results depend on the processing

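No paired analysis was possible because the table holds 1 column per condition, and for the same reason no replicate could be left out. With columns rescaled to the same sum, the median of the proteasome genes in CD24 KO minus Scr was -0.46 with 11 genes at least 1.5-fold lower, and that in RCC2 KO minus CD24 KO was 0.57. Quantile normalization gave -0.49 with 13 genes, and 0.56. Raising the minimum to 2-fold left 4 genes in CD24 KO minus Scr and 6 in RCC2 KO minus CD24 KO. With 1 added to each FPKM, the ratio of PSMB8 to PSMB5 was 0.0180 in Scr, 0.0341 in CD24 KO and 0.0184 in RCC2 KO, and that of PSMB9 to PSMB6 was 0.00545, 0.0123 and 0.00487, values that follow from the added 1 because both genes were listed under 1 FPKM. No median of all compared members changed sign under the alternatives run, with a range of -0.72 to -0.46 for CD24 KO minus Scr, 0.06 to 0.09 for RCC2 KO minus Scr and 0.56 to 0.80 for RCC2 KO minus CD24 KO. Among class medians and related lists, 67 values moved by more than 0.1 and 269 did not. Without counts or separate libraries, neither counting error nor spread between cultures could be set beside any value.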
